A study of Sus scrofa with 17 samples.

Results

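The HOX genes were followed in the back muscle of weaned piglets, to read which positions of the axial code the tissue transcribed and whether the levels differed between diets. The list held 38 HOX symbols, taken by gene name, and 36 of them had a row among the 31908 genes of the count table. The HOX genes were chosen as a topic with earlier results of these data known. HOXA6 and HOXB9 had none. The 36 rows fell into 9 members in each of the 4 clusters: HOXA (chromosome 18, 45373440 to 45473347 of Sscrofa11.1), HOXB (chromosome 12, 24784953 to 24950637), HOXC (chromosome 5, 19151169 to 19268257) and HOXD (chromosome 15, 81894121 to 81990807).

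The RNA came from longissimus muscle (dorsi in the labels, lumborum in the study's methods) of Large White × Duroc male piglets, housed one by one, that were 28 days old at the start and had 5 days of adaptation before 2 weeks on their diet. The 6 control piglets ate a standard feed of wheat, maize and soybean meal without seaweed. The 6 UL piglets ate feed in which 7% was the green seaweed Ulva lactuca, and the 5 ULU piglets ate the same 7% of seaweed with 0.01% of ulvan lyase, a recombinant enzyme that cuts a polysaccharide of the seaweed's cell wall. Each piglet gave 1 library, so the spread between libraries holds the spread between animals. All 3 groups shared breed, sex, age and housing, and the UL and ULU comparisons below share the control piglets. Although the methods speak of 6 sequenced piglets on each diet, 5 ULU libraries were analysed here.

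HOX genes encode homeodomain transcription factors that lie in 4 clusters, in an order along the chromosome that follows the order in which they are switched on from head to tail in the embryo. The members at one end of a cluster (low paralogue numbers) mark the neck and upper chest, the middle ones the trunk, and those at the other end (high numbers) the pelvis, tail and distal limb. Adult cells, fibroblasts and muscle stem cells among them, keep much of this pattern, so that muscles from different places of the body carry different HOX transcripts. A paralogue group is the set of genes with the same number in the 4 clusters.

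Between 16137365 and 26546810 reads were counted on genes per library (control 16335304 to 23433672, UL 16470286 to 20896796, ULU 16137365 to 26546810). The HOX rows together took 2007 to 4069 of these reads per library, so most members rest on few reads. Levels are given as CPM, the counts of a gene per 1000000 reads after scaling of the libraries, for the same gene between piglets, and as RPKM, the CPM per kilobase of exons, between genes. A signal of 3 counts, taken as the detection floor, equalled 0.13 to 0.195 CPM, and this covers counting error only. The muscle label fitted the markers: actin alpha 1 (ACTA1), the main actin of skeletal myofibres, had 1046505 to 3078381 counts per library. The share of all counts on the mitochondrial chromosome was 14% to 15.9% in control, 8.64% to 14.8% in UL and 8% to 11.6% in ULU, without overlap between control and ULU, and its part in the results below was not tested.

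The muscle transcribed the middle of the axial code and very little of its last part. Summed over the members of a paralogue group, the mean level over all 17 piglets was 22.3 ± 4.75 RPKM (SD, n = 17) in group 8, 15.2 ± 2.84 RPKM in group 9 and 9.85 ± 2.93 RPKM in group 10. The peak at group 8 was 1 gene, HOXD8 (20.7 RPKM), while HOXC8 had 1.53 RPKM and HOXB8 0.036 RPKM. Group 7 reached 5.63 ± 1.44 RPKM. Groups 1 to 6 each lay between 0.34 and 2.09 RPKM, and group 11 dropped to 0.183 ± 0.128 RPKM. Groups 12 and 13 were at 0 and 0.00565 RPKM.

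The 9 members of paralogue groups 11 to 13, which in the embryo mark the sacral and tail region and the distal limb, held 129 counts in all libraries together. HOXC11 had 111 of them, with 0 to 20 counts per library, and the other 8 had 18, with at most 7 counts in any library. HOXA13, HOXC12, HOXD12 and HOXD13 had 0 counts in all 17 libraries, as did HOXB13. HOXB1, at the other end of its cluster and known for its role in the hindbrain, was also at 0 throughout. A count of 0 allows a level up to the detection floor.

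Of the 36 members, 17 had at least 3 counts in every library, and 12 had at least 10. The low count filter of edgeR kept 19 members for testing and left out 17, of which 11 had some counts. HOXA2, HOXA11, HOXB3, HOXB4, HOXB5, HOXB6, HOXB8, HOXC11, HOXC13, HOXD4 and HOXD11 were these 11, each with at most 0.985 CPM in any piglet. HOXD4 shares 433 exon bases with HOXD3, and reads on shared bases were not counted for either gene.

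**Figure D1:**
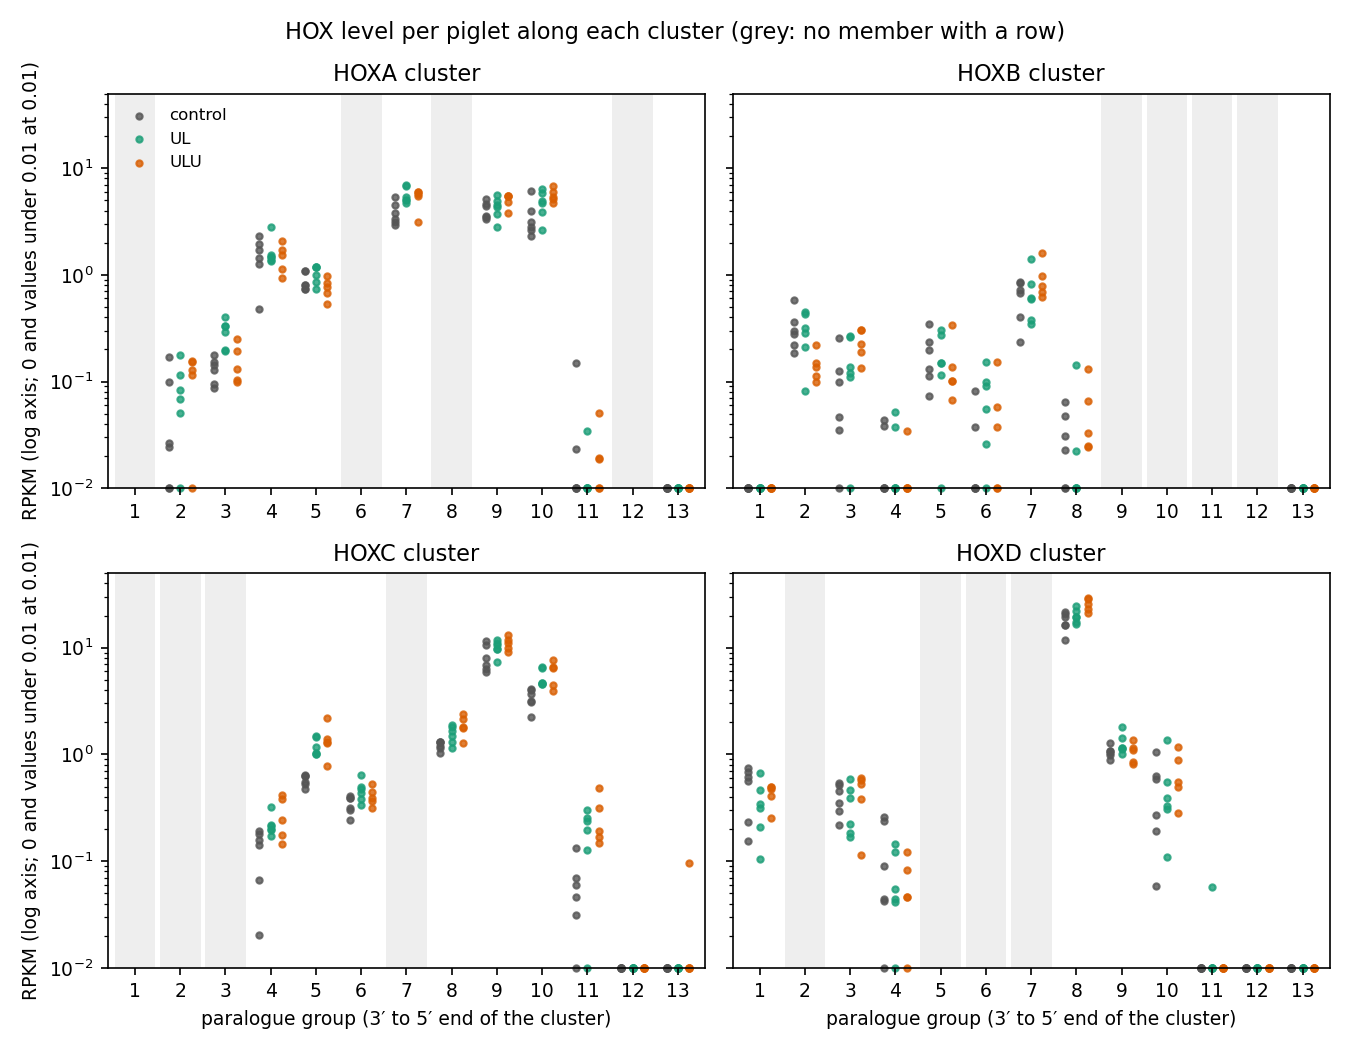
Level of each HOX member per piglet (RPKM, log axis, with 0 and values under 0.01 drawn at 0.01) against its paralogue group in the HOXA, HOXB, HOXC and HOXD clusters, with control in grey, UL in green and ULU in orange, and grey bands where a cluster has no member with a row. HOXA, HOXC and HOXD have their highest points in groups 7 to 10 and drop steeply at group 11, while the HOXB members stay low throughout.

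HOXD8 stood above every other member. Its mean level was 20.7 ± 4.53 RPKM (SD, n = 17), higher than 90.8% of the 14203 genes tested, and it was above HOXC9 in 17 of 17 piglets. HOXD8 is a trunk gene in the middle of the HOXD cluster, where its neighbours HOXD9 (1.13 ± 0.242 RPKM) and HOXD10 (0.543 ± 0.377 RPKM) were far lower. HOXD8 alone held 49.1% ± 5.18 (SD, n = 17) of all HOX counts and 35.1% ± 4.58 when counts were taken per kilobase.

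HOXC9, which marks the lower thorax, was second with 9.66 ± 2.12 RPKM, and it was above HOXA7 in 17 of 17 piglets. HOXA7 (4.89 ± 1.25 RPKM), HOXC10 (4.75 ± 1.49 RPKM), HOXA10 (4.55 ± 1.46 RPKM) and HOXA9 (4.45 ± 0.86 RPKM) followed and did not differ beyond their spread: each was above the next in 10 of 17 piglets. HOXA9 in turn lay above HOXA4 in 17 of 17 piglets.

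Below this step came HOXA4 (1.56 ± 0.526 RPKM) and HOXC8 (1.53 ± 0.379 RPKM), which were not separated, then HOXD9, HOXC5 (1.03 ± 0.455 RPKM), HOXA5 (0.893 ± 0.199 RPKM) and HOXB7 (0.737 ± 0.351 RPKM). From HOXD9 downwards no neighbours in the order differed by more than the larger of their SDs. The row of HOXA5 holds 6070 exon bases, of which 2278 lie within the RefSeq span of HOXA6 and 2020 within that of HOXA5 itself, so its reads may come from both genes. HOXD1 (0.424 RPKM), HOXC6 (0.403 RPKM), HOXD3 (0.388 RPKM), HOXB2 (0.26 RPKM), HOXC4 (0.202 RPKM) and HOXA3 (0.194 RPKM) closed the list of members tested.

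The clusters were used unequally. HOXD held 52.9% ± 4.78 (SD, n = 17) of the HOX counts, HOXA 24.8% ± 2.63, HOXC 20.8% ± 2.72 and HOXB 1.52% ± 0.499. Per kilobase the shares were 39.5%, 28.2%, 29.8% and 2.43%, so HOXA and HOXC changed places. The HOXB members summed to 1.41 ± 0.463 RPKM, and only HOXB2 and HOXB7 passed the filter.

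Members differed in how much they varied between piglets of a diet. The biological coefficient of variation, edgeR's estimate of the spread between animals beyond counting error, was 0.177 for HOXD8 and 0.653 for HOXD10, with a median of 0.266 over the 19 tested members and 0.244 over all genes tested. HOXD10, a marker of the lumbar region, ranged from 0.109 to 2.56 CPM, a 23.5-fold span. The low end rests on 2 counts, under the detection floor, and the high end on 54 counts, so the size of this span is uncertain. Its low and high piglets occurred in more than one diet: control piglet 24 was lowest, and UL piglet 30, ULU piglet 41 and control piglet 23 were highest.

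Most tested HOX genes had higher mean levels with both seaweed diets than in control, and the largest median difference was in the HOXC cluster. Summed over the 36 members, the level was 99 to 149 CPM in control (median 129), 125 to 171 CPM in UL (median 155) and 168 to 199 CPM in ULU (median 176). Every ULU piglet thus lay above every control piglet, while UL overlapped control. The sum without HOXD8 was 56.2 to 79.5 CPM in control, 65.4 to 99.3 CPM in UL and 74.2 to 94.8 CPM in ULU, and these ranges overlapped. The shares of the clusters overlapped between diets: the HOXC share of the HOX counts was 19.4% ± 2.06 in the 6 control, 22.2% ± 2.64 in the 6 UL and 21% ± 3.12 in the 5 ULU piglets (mean ± SD), and the HOXD share was 53.9% ± 3.77, 50.5% ± 5.01 and 54.6% ± 5.32. In bulk muscle, fewer cells of a type and less RNA per cell cannot be told apart.

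In ULU vs control, 3 of the 19 tested members passed an adjusted p of 0.05 (quasi-likelihood F test of edgeR, Benjamini-Hochberg over all genes tested), all higher, against 2.98% of all genes tested. HOXC5 also passed the fold change limit of 1 on the log2 scale and was the 1 member called under both limits, against 0.415% of all genes. At an unadjusted p under 0.05 there were 8 members higher and 1 lower, against 10.1% and 8.78% of all genes. Of the 19, 15 were higher in ULU, against 47% of all genes, and the median log2 fold change was 0.42, against -0.03 over all genes. In 1 member, HOXC5, every ULU piglet was above every control piglet, against 2.3% of all genes.

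HOXC5, a gene of the neck and upper thorax (ENSSSCG00000040798, chromosome 5, 19245851 to 19248172), had 0.763, 0.956 and 1.04 CPM as the lowest, median and highest control value. The UL piglets had 1.62, 1.79 and 2.42 CPM, and the 5 ULU piglets had 3.53, 2.27, 2.08, 2.12 and 1.26 CPM. No UL or ULU piglet fell within the control range, and ULU piglet 44 came closest to it. Against control, the ULU level differed by 1.27 on the log2 scale (SE 0.25, adjusted p = 0.0127 by edgeR's quasi-likelihood test), a 2.41-fold difference resting on 14 to 81 counts per library. The call was kept in 17 of 17 fits that left out 1 library, with a log2 fold change of 1.04 to 1.42. In a fit of the control and ULU libraries alone the adjusted p was 0.0541, and DESeq2 on all libraries gave no adjusted p for this gene (unadjusted p = 6.59e-06).

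HOXC10, a lumbar gene (ENSSSCG00000022728, chromosome 5, 19197807 to 19202970), had 4.52, 6.85 and 8.24 CPM as lowest, median and highest in control and 9.15, 9.38 and 13.2 CPM in UL. The ULU piglets had 13.4, 12.9, 8.96, 15.4 and 7.87 CPM. All UL piglets were above all control piglets, and 4 of the 5 ULU piglets were, with ULU piglet 44 inside the control range. HOXC10 rose in ULU vs control with a log2 fold change of 0.78 (SE 0.19, edgeR adjusted p = 0.0354). The adjusted p stayed under 0.05 in 9 of the 17 fits with 1 library left out and ranged from 0.0212 to 0.102. It was lost without control piglet 21, 22, 23, 24 or 26 and without ULU piglet 40, 41 or 43.

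HOXD8 (ENSSSCG00000040349, chromosome 15, 81931383 to 81935529) had 42.7, 64 and 77.1 CPM as lowest, median and highest in control and 60, 69.7 and 88.1 CPM in UL. The ULU piglets had 83.4, 75.4, 92.2, 105 and 102 CPM. All ULU piglets but piglet 41 lay above the control range. HOXD8 rose in ULU vs control with a log2 fold change of 0.53 (SE 0.14, edgeR adjusted p = 0.0495), and the adjusted p stayed under 0.05 in 3 of the 17 fits with 1 library left out, those without control piglet 21, control piglet 25 or UL piglet 27.

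**Figure D2:**
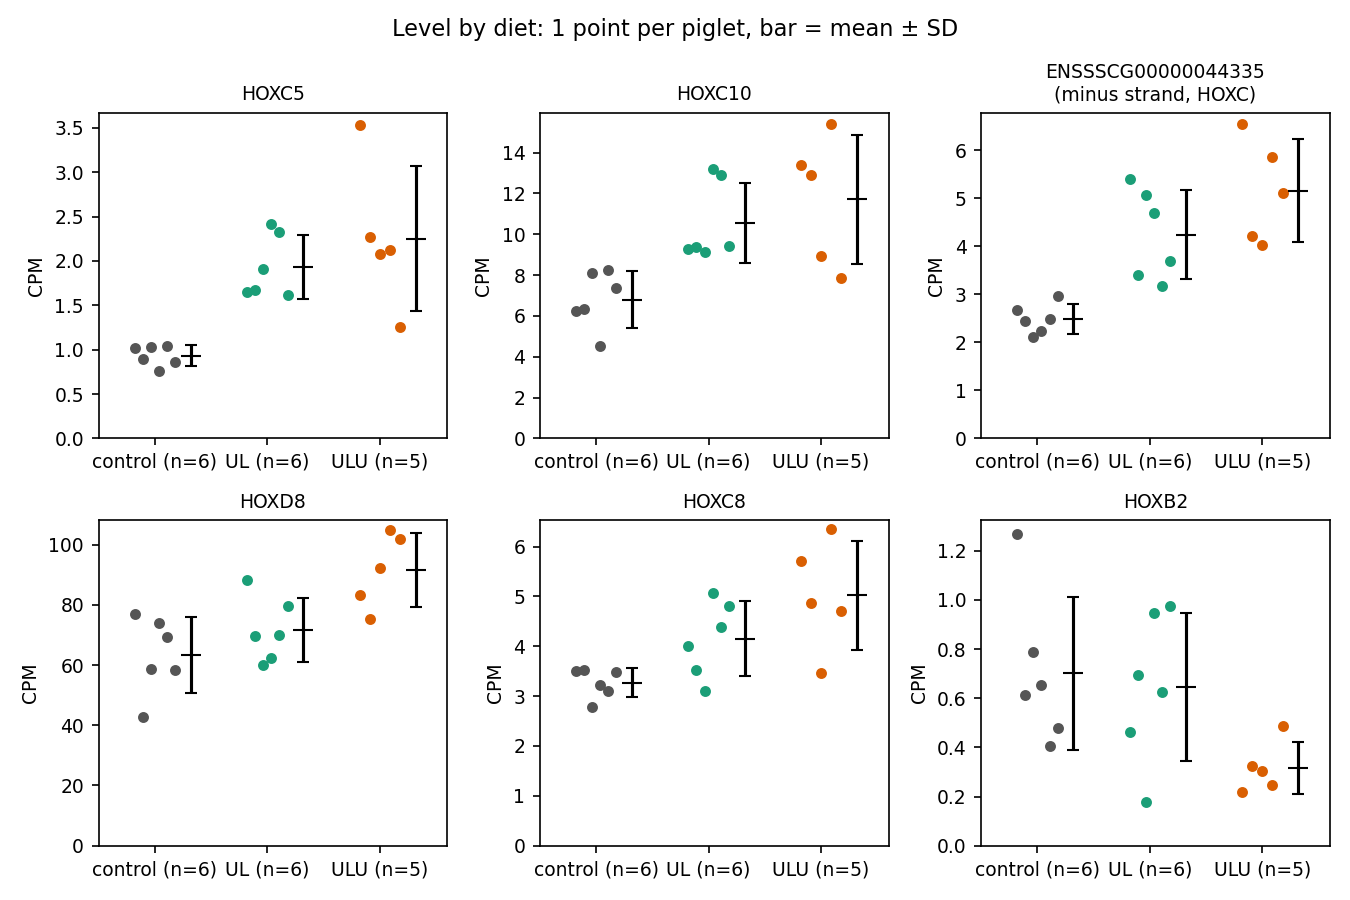
Level in CPM of HOXC5, HOXC10, the minus-strand row ENSSSCG00000044335, HOXD8, HOXC8 and HOXB2 in control (n = 6), UL (n = 6) and ULU (n = 5), with 1 point per piglet and a bar for the mean ± SD. The control points of HOXC5 and of ENSSSCG00000044335 lie below all UL and ULU points, the ULU points of HOXC10, HOXD8 and HOXC8 mostly lie above control, and HOXB2 is lowest in ULU with overlap.

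The next members in order of p did not pass with edgeR, while HOXC8 and HOXA10 passed with DESeq2. In ULU vs control DESeq2 passed more genes at an adjusted p under 0.05. Of all 14203 genes it passed 1057 on all libraries and 854 on those of the 2 diets, against 423 with edgeR. HOXC8, a thoracic gene, had 2.79 to 3.53 CPM in control (median 3.35), 3.11 to 5.07 CPM in UL (median 4.19) and 5.72, 4.87, 3.46, 6.35 and 4.71 CPM in ULU, with a log2 fold change of 0.62 (SE 0.18, edgeR adjusted p = 0.0622) in ULU vs control. With DESeq2 the adjusted p was 0.0197 on all libraries and 0.0309 on those of the 2 diets. Only ULU piglet 42 was within the control range. HOXA10, a lumbar gene, had 7.38 to 19.6 CPM in control (median 9.61), 8.49 to 20.6 CPM in UL (median 15.4) and 19.3, 22.1, 15.2, 17.4 and 16.3 CPM in ULU, a log2 fold change of 0.68 (SE 0.23, edgeR adjusted p = 0.109). With DESeq2 the adjusted p was 0.0457 on all libraries and 0.0427 on the 2 diets, but 0.0574 without independent filtering. Control piglet 25, at 19.6 CPM, was the one control piglet inside the ULU range, and without it the log2 fold change was 0.92, with an edgeR adjusted p of 0.0153. That was the only 1 of the 17 fits with 1 library left out in which HOXA10 passed. Over these fits its edgeR adjusted p ranged from 0.0153 to 0.217. HOXB2, a hindbrain gene, was the 1 member lower at an unadjusted p under 0.05. It had 0.405 to 1.27 CPM in control (median 0.633), 0.178 to 0.974 CPM in UL (median 0.659) and 0.218, 0.325, 0.303, 0.246 and 0.486 CPM in ULU, a log2 fold change of -1.13 (SE 0.43, edgeR adjusted p = 0.162). The groups overlapped, on 4 to 20 counts per library. The low count filter dropped HOXB2 in the edgeR fit of the UL and ULU libraries alone. Its place as the 1 lower member therefore depends on its control counts.

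All 6 tested HOXC members had a log2 fold change above 0 in ULU vs control, with a median of 0.70, and so did 4 of 6 in HOXA (median 0.26), 4 of 5 in HOXD (median 0.16) and 1 of 2 in HOXB. Members of a cluster were read in the same piglets, so they are not independent of each other. ULU piglet 40 and UL piglet 30 were among the highest piglets for HOXC5, HOXC8, HOXC9 and HOXC10. The low count filter dropped HOXC4 in the edgeR fit of the control and UL libraries alone. HOXC4 was at 1.10 (SE 0.43) and HOXC9 at 0.42 (SE 0.18), and neither passed. HOXA9 was at 0.29 with a 95% interval of -0.05 to 0.62, and HOXD9 at 0.01 with an interval of -0.41 to 0.43, intervals that reach 1.96 standard errors either way. The other members lay between -0.24 and 0.56.

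In UL vs control, 0 of the 19 members were called, against 0% of all genes, and 0 passed the adjusted p alone in edgeR's quasi-likelihood test. At an unadjusted p under 0.05 there were 5 members, all higher, against 5.84% of all genes in that direction. DESeq2 gave 0 members at an adjusted p under 0.05 on all libraries, against 173 of the 14203 genes. On the UL and control libraries alone it gave 1, HOXC10, against 162 genes. In both fits independent filtering gave HOXC5 and most other members no adjusted p, so they were not judged. The members judged were HOXA5, HOXA7, HOXA9, HOXA10, HOXC9, HOXC10 and HOXD8. Without independent filtering, a setting added after the data were seen, HOXC5 passed (log2 fold change 1.05, DESeq2 adjusted p = 0.0314), against 121 genes. Of the 19, 16 were higher in UL, against 49.5% of all genes, and the median log2 fold change was 0.28, against -0.00 over all genes. In 3 members, HOXC5, HOXC10 and HOXA3, every UL piglet was above every control piglet, against 0.493% of all genes. HOXA3 was kept by the low count filter through its UL counts. The filter dropped it in the edgeR fit of the control and ULU libraries alone. Its place among these 3 members, and among the 5 at an unadjusted p under 0.05, therefore depends on its UL level.

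HOXC5 had a log2 fold change of 1.05 (SE 0.24, edgeR adjusted p = 0.152) in UL vs control, and HOXC10 one of 0.63 (SE 0.18, edgeR adjusted p = 0.208). HOXA3, a gene of the neck and pharyngeal arches, had 0.254 to 0.525 CPM in control (median 0.403), 0.568 to 1.18 CPM in UL (median 0.913) and 0.567, 0.389, 0.303, 0.739 and 0.292 CPM in ULU. Its log2 fold change was 1.12 (SE 0.34, edgeR adjusted p = 0.223) in UL vs control, on 4 to 23 counts per library, and the ULU piglets overlapped both other diets. HOXA7, a thoracic gene, had 2.83 to 5.13 CPM in control (median 3.42), 4.53 to 6.63 CPM in UL (median 4.95) and 5.67, 5.65, 5.41, 5.22 and 3.01 CPM in ULU, with a log2 fold change of 0.55 (SE 0.19, edgeR adjusted p = 0.309) in UL vs control. HOXC6, another thoracic gene, had 1.59 to 2.68 CPM in control (median 2.32) and 2.21 to 4.26 CPM in UL (median 3), with a log2 fold change of 0.43 (SE 0.20, edgeR adjusted p = 0.449).

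In ULU vs UL, which asks what the enzyme added to the seaweed, 0 of the 19 members were called, against 0.0141% of all genes, and 0 passed the adjusted p alone in edgeR's quasi-likelihood test, against 0.0352%. At an unadjusted p under 0.05 there were 4 members, against 10.8% of all genes, and in 0 members the diets did not overlap, against 1.75%. With DESeq2 on all libraries, independent filtering left HOXD8 as the only member with an adjusted p (0.138). The other members were not judged there, and HOXD8 did not pass, while 223 of the 14203 genes did. Without independent filtering every tested member was judged, and DESeq2 gave 0 members, against 137 genes. HOXA3 had a log2 fold change of -0.89 (SE 0.35, edgeR adjusted p = 0.373), HOXD8 of 0.36 (SE 0.14, adjusted p = 0.385), HOXB2 of -1.01 (SE 0.44, adjusted p = 0.42), HOXA5 of -0.43 (SE 0.19, adjusted p = 0.424) and HOXC8 of 0.28 (SE 0.18, adjusted p = 0.619). The low count filter kept HOXA3 through its UL counts, so its place among the 4 members at an unadjusted p under 0.05 depends on its UL level. HOXB2, dropped in the edgeR fit of the UL and ULU libraries alone, was tested here through its control counts. HOXC5 was at 0.22 with a 95% interval of -0.25 to 0.69 and HOXC10 at 0.15 with an interval of -0.22 to 0.52. The data thus left room for a difference of at least these bounds between the seaweed diets. Intervals of 1.96 standard errors are somewhat narrower than the F test. In UL vs control, HOXC8 had an interval of 0.01 to 0.67 but an unadjusted p of 0.0593 by edgeR's quasi-likelihood test.

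**Figure D3:**
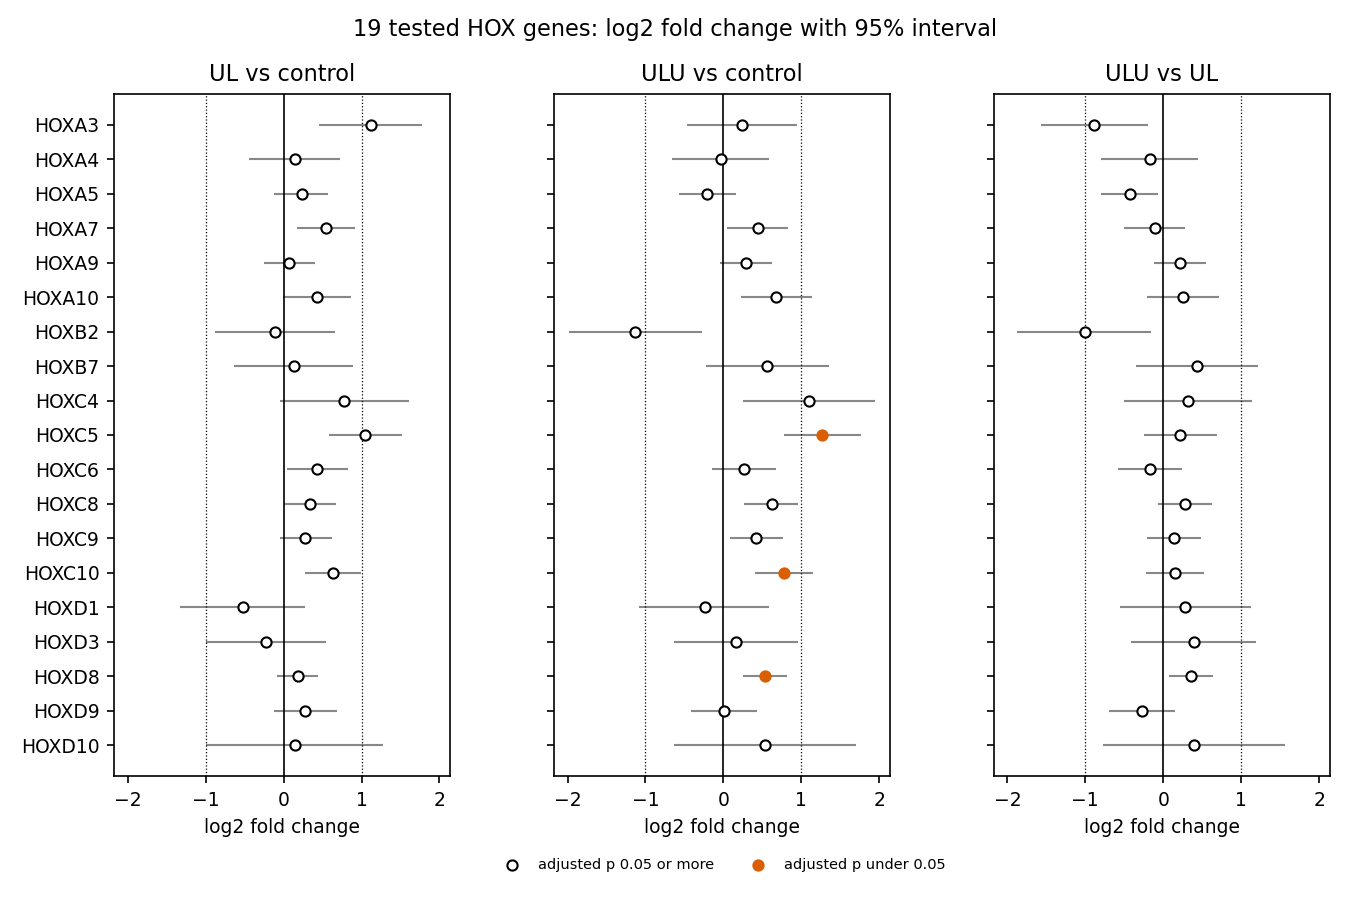
Log2 fold change of the 19 tested HOX genes with its 95% interval (1.96 standard errors either way), ordered along the clusters, in 1 panel per comparison. Filled points have an adjusted p under 0.05, and dotted lines lie at 1 and -1. The filled points are HOXC5, HOXC10 and HOXD8 in ULU vs control, and all 6 HOXC genes lie right of 0 in both comparisons with control.

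The remaining tested members are given by their ranges. HOXA4 ranged from 0.811 to 4.68 CPM over all piglets, HOXA5 from 3.26 to 7.2 CPM and HOXA9 from 5.78 to 11.5 CPM. HOXB7 ranged from 0.318 to 2.14 CPM, HOXC4 from 0.0545 to 1.12 CPM and HOXC9 from 7.72 to 17.3 CPM. HOXD1 ranged from 0.284 to 2.03 CPM, HOXD3 from 0.349 to 1.85 CPM and HOXD9 from 1.46 to 3.25 CPM. In each of these genes the control range overlapped the UL and the ULU range.

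HOXC11, a gene of the lumbosacral region that did not pass the filter, had 0 to 0.27 CPM in control (median 0.108), 0 to 0.616 CPM in UL (median 0.443) and 0.305, 0.649, 0.346, 0.985 and 0.389 CPM in ULU. Every ULU piglet was above every control piglet, against 2.3% of all genes tested, and UL piglet 27 was at 0. The closest were control piglet 25 (0.27 CPM, 6 counts) and ULU piglet 40 (0.305 CPM, 7 counts). In the fit without a filter, ULU differed from control by 2.12 on the log2 scale (SE 0.70, edgeR adjusted p = 0.155), on 0 to 6 counts per control library and 7 to 20 counts per ULU library.

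The clusters also held 12 rows that are no HOX members, 5 of them at 0 in all libraries. The row with the most counts was ENSSSCG00000044335 on the minus strand of chromosome 5, 19206548 to 19209212, between HOXC10 and HOXC9 and within the span of RefSeq's LOC102167757. It had 2.12, 2.46 and 2.96 CPM as lowest, median and highest in control, 3.18, 4.19 and 5.4 CPM in UL, and 6.55, 4.22, 4.03, 5.86 and 5.1 CPM in ULU. All UL and ULU piglets were above all control piglets, against 0.493% of all genes for UL and 2.3% for ULU. The row rose in ULU vs control with a log2 fold change of 1.05 (SE 0.19, adjusted p = 0.00896 by edgeR's quasi-likelihood test), was at 0.77 (SE 0.18, adjusted p = 0.152) in UL vs control and at 0.28 (SE 0.18, adjusted p = 0.632) in ULU vs UL. The adjusted p in ULU vs control was under 0.05 in 17 of 17 fits with 1 library left out, while the log2 fold change fell below 1 without ULU piglet 40 or 43 (lowest value 0.95). The row shares no exon bases with HOXC10 or HOXC9, but counting did not use strand, so reads from the opposite strand in its exons cannot be told apart from its own. Next by mean count, ENSSSCG00000040561 in the HOXA cluster had a mean of 5.41 counts and ENSSSCG00000039193 in the HOXB cluster 1.35 counts, and neither was tested.

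**Figure D4:**
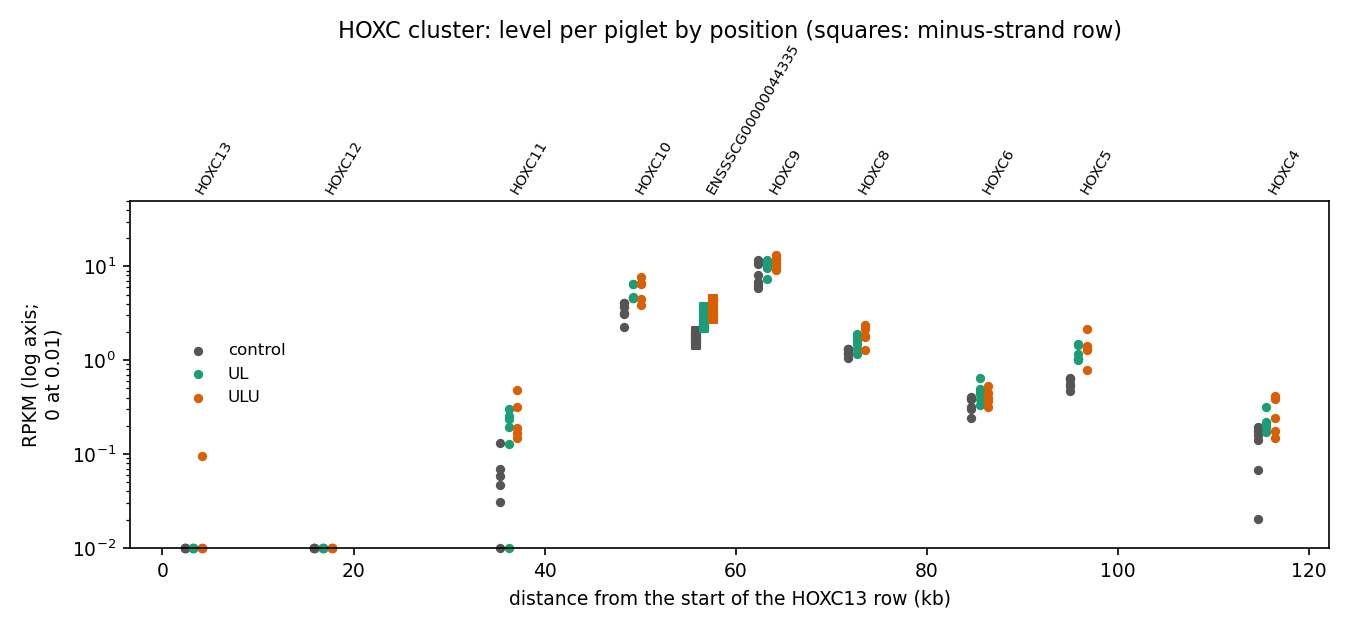
Level per piglet (RPKM, log axis, with 0 drawn at 0.01) of the 9 HOXC members (circles) and of the minus-strand row ENSSSCG00000044335 (squares) against the distance in kb from the start of the HOXC13 row, with control in grey, UL in green and ULU in orange. The levels peak at HOXC9 and HOXC10, and the control points are lowest at HOXC5 and at the minus-strand row.

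HOX proteins bind DNA with partners of the TALE family, and 7 of the 9 partner genes listed were tested. PBX3 was highest (16.5 ± 4.66 RPKM, SD, n = 17), then PKNOX2 (6.04 ± 1.47 RPKM) and MEIS1 (2.9 ± 0.519 RPKM). PKNOX2 was the one partner past the adjusted p in any comparison with edgeR, in ULU vs control, where 2.98% of all genes passed. Its level was 26 to 36.8 CPM in control, 29.7 to 38.1 CPM in UL and 37.7 to 58.8 CPM in ULU. Every ULU piglet was above every control piglet, against 2.3% of all genes. PKNOX2 rose in ULU vs control with a log2 fold change of 0.66 (SE 0.12, edgeR adjusted p = 0.00898). With DESeq2 on all libraries it was also the 1 partner past the adjusted p in ULU vs UL, where 223 of the 14203 genes passed.

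The Polycomb, Trithorax and related genes, which keep HOX genes off or on, were all tested. Of these 13 none passed the adjusted p in any of the 3 comparisons with edgeR or DESeq2. In each comparison 2 had an unadjusted p under 0.05, against 18.9% of all genes in ULU vs control and 10.8% in each of the others. With DESeq2 on all libraries 1057 of the 14203 genes passed in ULU vs control. EED (10.4 RPKM), BMI1 (8.96 RPKM) and SUZ12 (3.45 RPKM) were highest, and the median log2 fold change was -0.11 in ULU vs control. Of 12 genes that act upstream of HOX genes in the embryo (CDX genes, GDF11 and genes of retinoic acid signalling), 6 were tested and 0 passed the adjusted p in any comparison with edgeR, while 1 had an unadjusted p under 0.05 and 1 passed with DESeq2 in ULU vs control. CRABP1 (3.28 RPKM), CRABP2 (2.88 RPKM) and RARB (1.63 RPKM) were highest, CDX2 was at 0 in all libraries and CDX1 had no row. Of the 11 genes flanking the clusters with a row, 8 were tested and 0 passed with edgeR, while in ULU vs control 2 had an unadjusted p under 0.05 and 1 passed with DESeq2. HIBADH (46.9 RPKM), MTX2 (42.1 RPKM) and LNPK (29.6 RPKM) were highest, and EVX1, EVX2 and TTLL6 were at 0 in all libraries.

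Of 17 other transcription factors that mark the position or origin of muscles, 7 were tested. PITX1, TBX4 and TBX5, the factors of hindlimb and forelimb identity, were at 0 in all 17 libraries. TBX15 (13.3 ± 2.53 RPKM), MEOX2 (11.2 ± 2.02 RPKM), a somite gene, and SIM1 (3.91 ± 1.51 RPKM) were highest. With edgeR, 1 of the 7 rose past the adjusted p in ULU vs control, against 1.99% of all genes. ZIC1, expressed in the dorsal part of the somite, had 1.29 to 2.02 CPM in control, 1.85 to 3.25 CPM in UL and 2.25 to 4.38 CPM in ULU, a log2 fold change of 0.97 (SE 0.23, edgeR adjusted p = 0.0309).

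Markers of the cell types in muscle were summed per piglet beside the HOX genes. Of 7 myofibre markers 5 had a row and were tested, and their summed level was 117524 to 192672 CPM in control, 153554 to 209257 CPM in UL and 169200 to 299882 CPM in ULU. TNNT3, the troponin T of fast fibres, was the one of them that passed in ULU vs control with edgeR, with a log2 fold change of 0.66 (SE 0.15, edgeR adjusted p = 0.028). With DESeq2 on all libraries 3 of the 5 passed (ACTA1, CKM and TNNT3). Over all 14203 genes, 1057 passed in that DESeq2 comparison and 423 in that of edgeR. The median log2 fold change of the 5 was 0.55 with edgeR. The 7 fibroblast markers, cells known to keep a HOX pattern, summed to 3182 to 7226 CPM in control, 4168 to 8304 CPM in UL and 2767 to 6881 CPM in ULU. Their median log2 fold change was -0.36 in ULU vs control. There 3 of the 7 had an unadjusted p under 0.05, against 18.9% of all genes. None passed the adjusted p with edgeR or DESeq2. The satellite cell markers, 4 of 5 with a row, summed to 44.1 to 64.2 CPM, 43 to 62.9 CPM and 49 to 71.3 CPM in the same order. In tendon, endothelial, mural, adipocyte, Schwann cell and leukocyte markers none passed the adjusted p in any comparison with either tool, and their summed ranges overlapped between diets. Their median log2 fold changes in ULU vs control were -0.39, 0.04, -0.47, -1.23, -0.78 and -0.62 in this order, and the adipocyte median in UL vs control was -0.95. The part of cell composition in the HOX differences was not tested.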

How the data were processed

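The 17 libraries hold single reads of 75 nt. Per the file headers and the methods, the authors trimmed reads with fastp, aligned them with HISAT2 to Sscrofa11.1 and counted them per gene with featureCounts (2.0.1 in the header) on Ensembl annotation 104, with no strand option. The deposited raw counts per gene of 31908 rows were used. The deposited mean over libraries, a value of another kind, and the exon length per gene served as a check and for RPKM. Symbols came from Ensembl identifiers (15029 rows), and 3 members (HOXA4, HOXA13, HOXD13) from their RefSeq position on the same build. No sequences are shown.

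The counts were fitted in edgeR 4.0.16 (R 4.3.3): filterByExpr, TMM factors, 1 model of all 17 libraries, the quasi-likelihood F test and Benjamini-Hochberg adjustment over 14203 genes. A call needed an adjusted p under 0.05 together with a change of 1 or more either way on the log2 scale. For the SE, the size of that change was divided by the root of F. The same steps were tested on simulated data. Every tested HOX gene has values, the 5 members with the smallest p per comparison have fold changes, SEs and adjusted p, and of other lists the 3 highest, those past the adjusted p and those at 0 are named. HOXC11, HOXC4, HOXC9, HOXA9 and HOXD9 were added to the members with fold changes after their values were seen. The HOX genes and the lists were chosen with earlier results of these data known, and 1 gene of the muscle position list is not reported here. Libraries held 16137365 to 26546810 counts, and no pair of a diet agreed within sampling noise. Alternatives were DESeq2 1.42.0, other libraries in the fit, RLE factors, no filter and leaving out each library.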

Additional observations from a re-analysis of the deposited data

Results flagged for a closer look

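In 4 of the 57 groups of CPM values (19 HOX genes in 3 diets) 1 piglet stood apart from the others of its diet by Dixon's criterion at 95%, which chance gives in about 1 in 20 groups. HOXA4 was 4.68 CPM in UL piglet 27, on 91 counts, while the other UL piglets had 2.27 to 2.6 CPM. HOXA7 was 3.01 CPM in ULU piglet 44, the lowest of its diet, while the other ULU piglets had 5.22 to 5.67 CPM. HOXC4 was 0.853 CPM in UL piglet 31, on 15 counts, against 0.463 to 0.584 CPM in the others. HOXD10 was 2.56 CPM in UL piglet 30, on 54 counts, against 0.206 to 1.04 CPM in the others.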

How the results depend on the processing

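The methods say that the piglets were pair-fed, but the labels name no pairs, and the piglet numbers differ between all 3 diets. No paired analysis was therefore possible. The count of HOX genes called in ULU vs control, 1 (HOXC5), was 0 with edgeR on the libraries of the 2 diets, 3 with the adjusted p alone, and 0 with DESeq2 on all libraries or on the 2 diets, where DESeq2 gave HOXC5 no adjusted p, so that its call was not judged. DESeq2 without independent filtering, chosen after seeing the data, gave 1 called HOX gene in UL vs control, HOXC5 (adjusted p = 0.0314), and 1 in ULU vs control (adjusted p = 0.000766). In UL vs control this setting called 21 of all 14203 genes. Over all genes, the calls in ULU vs control were 59 in the main fit, 27 with edgeR on the 2 diets and 115 with that DESeq2 setting, those in UL vs control 0 against 10 with DESeq2 on all libraries, and those in ULU vs UL 2 against 17 without independent filtering. Leaving out 1 library changed no count of called HOX genes, but HOXC10 and HOXD8 lost the adjusted p in several of these fits. HOXD8 also lost it with edgeR without the low count filter (adjusted p = 0.057) and, like HOXC10, with edgeR on the 2 diets (0.0873 and 0.0802), while DESeq2 on the 2 diets kept both (0.0187 and 0.0101). Differences near 0 changed sign when 1 library was left out: HOXB2 in UL vs control ranged from -0.26 to 0.13 (0.13 without control piglet 21, 0.09 without UL piglet 29), HOXA3 in ULU vs control from -0.00 (without ULU piglet 43) to 0.36, HOXA7 in ULU vs UL from -0.16 to 0.02 (without ULU piglet 44) and HOXC5 in ULU vs UL from -0.00 (without ULU piglet 40) to 0.37. Per kilobase, the cluster shares moved to 28.2% (HOXA), 2.43% (HOXB), 29.8% (HOXC) and 39.5% (HOXD), since members differ in length. RLE factors changed no call of the members tested for this. Members under about 10 counts per library, HOXA3, HOXB2 and HOXC4 among them, have wide errors, and a difference there may not have been detectable at this depth.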
